A study of Homo sapiens with 12 samples.

Results

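NME4, HMG20B and RPAIN are 3 genes whose retained introns were among those that gained most upon RNF113A depletion in Cisplatin-treated A549 cells. All splicing events listed under these gene symbols were taken, in all 4 comparisons of the deposited splicing tables. They comprised 10 distinct retained intron events, 2 of NME4, 5 of HMG20B and 3 of RPAIN, of 4368 retained intron events in 2527 genes, and 57 other events. The genes were picked by their change in the comparison of depleted and control cells under Cisplatin. Everything measured on the 3 genes in that comparison is therefore given below as values, with no test.

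A549 is an established cell line from a human lung adenocarcinoma. Cells were infected with lentiviruses that carried a control shRNA or an shRNA against RNF113A and were selected with puromycin, so all 4 conditions carry a lentivirus, and no source says that they derive from 1 clone. Control and RNF113A-depleted cells were left untreated or received Cisplatin, a platinum drug that crosslinks DNA, at 25 µg/ml for 20 h as the labels give it (the study's text gives the dose of its other Cisplatin experiments in micromolar units), and mRNA of 3 biological replicates per condition was sequenced as stranded paired-end libraries. The question put to these libraries is which transcripts and splicing events depend on RNF113A, with and without DNA damage.

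Depth ranged from 33859097 to 56071514 read pairs over the 12 libraries, lowest in depleted cells under Cisplatin. RNF113A, the targeted gene, stood at 20.3, 19.5 and 19.8 CPM, the counts of a gene scaled to a common total of every library, in untreated control cells and at 15.3, 15.8 and 16.8 in untreated depleted cells (log2 fold change -0.31 ± 0.09 SE, edgeR adjusted p = 0.0247). Under Cisplatin it stood at 31.5, 28.9 and 27.7 CPM in control and at 25.8, 24.3 and 29.9 in depleted cells, whose ranges overlap (-0.14 ± 0.09, edgeR adjusted p = 0.233). In the very comparison that chose the 3 genes, the lower mRNA level of the target did not pass the test. These values are of mRNA alone. The study also probed RNF113A protein by western blot in control and depleted A549 cells with and without Cisplatin. Of 8 markers of A549 cells, 8 had reads in every library. Their summed level was 18493 to 26680 CPM in untreated control, 21666 to 23252 in untreated depleted, 9845 to 13221 in Cisplatin-treated control and 9347 to 10243 in Cisplatin-treated depleted cells. Single markers differed more than the sum: EPCAM stood at 5.57 to 18.4 CPM in untreated control and 85.5 to 97.6 in untreated depleted cells, and AKR1B10 at 1784 to 4782 and 1011 to 1303. Of 3 leukocyte markers, CD68 alone had reads in every library, at 27.9 to 36.9 and 43.3 to 45.7 CPM in untreated and at 30.3 to 31.4 and 56.8 to 74.0 CPM in Cisplatin-treated control and depleted cells, and 3 endothelial markers together reached at most 0.788 CPM. Replicate 2 of the untreated control cells stood apart from its group, with fibroblast markers (COL1A1, PDGFRB and DCN) at 35.3 CPM in sum against 5.94 in the lowest library of that group. Replicate 2 of the Cisplatin-treated control cells differed the same way, at 14.5 against 7.05 CPM. Nearly all of both sums was COL1A1, at 34.9 CPM in the untreated and 14.0 CPM in the Cisplatin-treated library. PDGFRB stood at 0.433 and 0.409 CPM there, and DCN had 1 and 0 reads. The part of these differences in the results was not tested.

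The 3 genes act in separate parts of the cell. NME4 encodes a nucleoside diphosphate kinase of mitochondria, which moves phosphate between nucleotides and binds the lipid cardiolipin. HMG20B encodes a protein with an HMG box, a DNA-binding fold, and is a subunit of the LSD1-CoREST complex, a histone demethylase and deacetylase complex that represses genes. RPAIN encodes a protein that brings replication protein A, the single-strand DNA-binding complex of replication and repair, into the nucleus. RNF113A is a zinc finger and RING protein of the spliceosome and an E3 ubiquitin ligase. An intron is removed where the spliceosome recognises a 5′ splice site, the donor, and a 3′ splice site, the acceptor. An intron that is left in the mRNA is called retained. Such mRNAs often stay in the nucleus or are degraded when the intron holds a stop codon.

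The splice sites of the retained introns are shown first because the results turn on these introns. Each line gives 10 bases of the exon and 20 bases of the intron, read from the GRCh37 genome on the plus strand, on which all 3 genes lie. Capitals mark the first 6 bases of the intron at a donor and its last 3 bases at an acceptor.
NME4 upstream donor, chr16:448376-448405: ggctcacctgGTGGGGaaagtgtgtttctc
NME4 downstream donor, chr16:448385-448414: ggtggggaaaGTGTGTttctccctggttcc
NME4 acceptor, chr16:448970-448999: tgacctcttgccttttgAAGgagggccctc
HMG20B intron 3 donor, chr19:3573789-3573818: cgaggaggagGTGAGAgtccctgcgctgag
HMG20B intron 3 acceptor, chr19:3574361-3574390: gacgcagcccggttctgCAGccggtgaaga
HMG20B intron 6 donor, chr19:3576296-3576325: tggacacaagGTAAGCgaccttcttcctct
HMG20B intron 6 acceptor, chr19:3576531-3576560: accttgtcccttcgtctTAGggtggggact
RPAIN intron 4 donor, chr17:5329393-5329422: tatgtacaaaGTAAGAgtttttaaaacctt
RPAIN intron 4 acceptor, chr17:5329536-5329565: gatcctaattctgcttcTAGgtacaacctg
RPAIN intron 5 donor, chr17:5329610-5329639: cccatctcatGTGAGTgttccacacacaga
RPAIN intron 5 acceptor, chr17:5331371-5331400: tgaacttttttattttgTAGtcttctgagt
All of these introns begin with GT and end with AG, as did 98.7% of the 4360 distinct retained introns of the tables. The 6 donor bases of the members differed in how often they occurred among these introns. GTGGGG and GTGTGT of NME4 opened 1.06% and 1.03% of them, GTGAGA of HMG20B intron 3 opened 3.92%, GTAAGC of HMG20B intron 6 opened 2.34%, GTAAGA of RPAIN intron 4 opened 3.10% and GTGAGT of RPAIN intron 5 opened 14.4%. These shares describe the letters and carry no test.

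The retained introns of the members were mostly longer than the median of 256 nt over all retained introns. In NME4 (chromosome 16, 446725 to 460367) the events share an acceptor and differ by 9 nt in their donor, giving introns at 448386 to 448989 (604 nt) and 448395 to 448989 (595 nt). Neither is an intron of the canonical transcript of 5 exons, and no transcript of the annotation has coding exons on both sides of them. In HMG20B (chromosome 19, 3572775 to 3579086) the main event is intron 3 of the canonical transcript of 10 exons, at 3573799 to 3574380 (582 nt). Intron 6 (3576306 to 3576550, 245 nt) is a separate event. In RPAIN (chromosome 17, 5322961 to 5336196) the events are intron 4 (5329403 to 5329555, 153 nt), intron 5 (5329620 to 5331390, 1771 nt) and a long event over 5329403 to 5331390 (1988 nt), whose spliced form also lacks exon 5. The long event contains the introns 4 and 5, so that its reads are not independent of theirs.

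The retained introns of the members differ in base composition. G and C made up 61.1% of the 604-nt intron of NME4 and 67.2% of intron 3 of HMG20B, but 45.8% and 43.8% of introns 4 and 5 of RPAIN, against a median of 57.0% over all retained introns. Intron 5 of RPAIN was longer than 94.4% of these introns, and intron 3 of HMG20B longer than 74.9%. Read on in the frame of the upstream exon, the first stop codon begins at base 175 of intron 3 and at base 55 of intron 6 of HMG20B, and at base 2 of intron 4 and base 154 of intron 5 of RPAIN. No frame was read into the NME4 introns, since no annotated transcript has coding exons on both sides of them.

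The NME4 intron had a higher inclusion level upon RNF113A depletion, in untreated and in Cisplatin-treated cells. An inclusion level is the share of the inclusion form, which keeps the intron, in the inclusion and skipping forms together. It is taken from the reads of these forms, each divided by the length of its form. It is not a share of all transcripts of the gene. The libraries of the splicing tables carry no replicate number and are named a, b and c in table order. For the upstream donor the inclusion level was 40.7, 31.2 and 37.3% in untreated control cells (36.4% ± 4.79 SD, n = 3) and 68.3, 53.4 and 54.2% in untreated depleted cells (58.6% ± 8.40). In Cisplatin-treated cells it was 33.3, 25.5 and 44.4% (34.4% ± 9.49) in control and 67.4, 76.5 and 59.4% (67.8% ± 8.55) in depleted cells. The depleted libraries lay above all control libraries under either condition, while the untreated and Cisplatin-treated control libraries overlapped. In untreated cells the ratio of inclusion to skipping reads rose by 1.33 ± 0.41 SE on the log2 scale (edgeR adjusted p = 0.0123).

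The downstream donor of NME4 gave a similar order of groups. Its inclusion level was 40.0, 36.9 and 47.4% in untreated control and 70.5, 72 and 54.1% in untreated depleted cells (log2 ratio 1.5 ± 0.45, edgeR adjusted p = 0.00965). In Cisplatin-treated cells it was 34.6, 23.1 and 45.3% in control and 68.6, 66.3 and 63.1% in depleted cells. These events share their inclusion reads almost entirely and count as 1 observation of the intron. The reads that chose between the donors did not move with depletion beyond their error: the downstream donor took 52.6, 44.2 and 45.7% in untreated control and 56.2, 30.8 and 51.2% in untreated depleted cells (log2 ratio -0.12 ± 0.57, edgeR adjusted p = 0.971). The call of the upstream event was lost without library b of the control cells (log2 ratio 1.12, adjusted p = 0.10) and without library a of the depleted cells (1.07, adjusted p = 0.122), and so was that of the downstream event (adjusted p = 0.0698 and 0.0662), which was also lost without library b of the depleted cells (adjusted p = 0.0945).

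Few reads joined the exons across this part of NME4. The skipping form of the upstream donor had 16, 46 and 19 reads in untreated control and 9, 20 and 11 in untreated depleted cells, against 103, 196 and 106 and then 182, 215 and 122 inclusion reads. Under Cisplatin the skipping reads were 22, 32 and 16 in control and 15, 9 and 19 in depleted cells, and the inclusion reads 103, 103 and 120 and then 291, 275 and 261. The 46 skipping and 196 inclusion reads belong to 1 control library, b, which is the highest of its group in both forms. Set against the reads of the exon at 449379 to 449480, per base, the intron of NME4 was covered at 1.04, 1.14 and 0.889% in untreated control and at 1.78, 1.94 and 1.26% in untreated depleted cells. It was covered at 1.17, 0.825 and 1.25% in Cisplatin-treated control and at 4.29, 3.97 and 3.99% in Cisplatin-treated depleted cells. The inclusion level of NME4 thus sets reads of this stretch against reads that join this exon pair. Some transcripts skip the exon before the stretch, so that the stretch lies within a longer intron of theirs. Reads of the stretch therefore need not come from transcripts that use the pair. The stretch itself was a small part of the reads of the gene in every library.

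**Figure D1:**
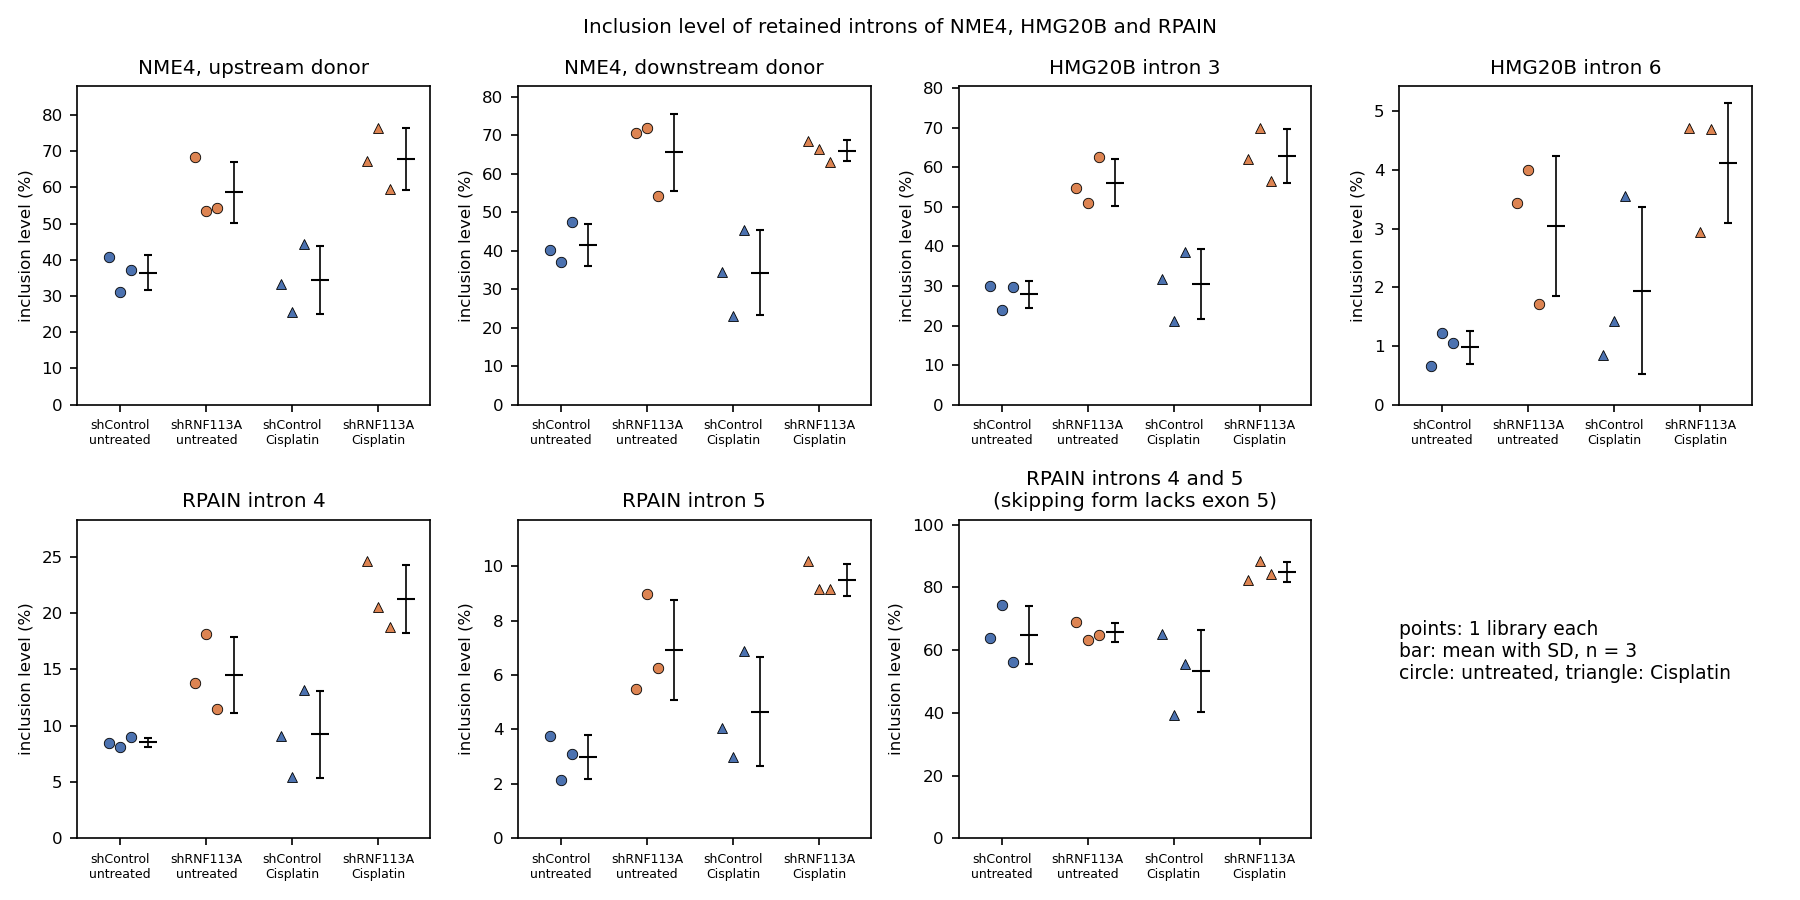
Inclusion level in percent (vertical axis) of the retained introns of NME4, HMG20B and RPAIN in the 4 conditions; points are libraries and bars are means with their SD, n = 3. The depleted libraries of HMG20B intron 3 lie at 50.9% and above and the control libraries at 38.7% and below.

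HMG20B retained intron 3 at a higher level upon depletion in untreated and in Cisplatin-treated cells, with the widest gap between the groups among the member events in untreated cells. The inclusion level was 30.0, 24.0 and 29.8% in untreated control (27.9% ± 3.42 SD, n = 3) and 54.8, 50.9 and 62.6% in untreated depleted cells (56.1% ± 5.98). It was 31.9, 21.0 and 38.7% (30.5% ± 8.91) in Cisplatin-treated control and 62.2, 70.1 and 56.4% (62.9% ± 6.84) in Cisplatin-treated depleted cells. Every depleted library exceeded every control library, and the control libraries with and without Cisplatin overlapped. In untreated cells the ratio of inclusion to skipping reads rose by 1.71 ± 0.29 on the log2 scale (edgeR adjusted p = 1.17e-06), and it passed the test without any single library (1.53 to 1.87).

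Both forms of HMG20B intron 3 contributed, with a larger change in the inclusion reads. These were 214, 186 and 227 in untreated control, 484, 593 and 487 in untreated depleted, 153, 138 and 218 in Cisplatin-treated control and 358, 425 and 353 in Cisplatin-treated depleted cells. The skipping reads were 55, 65 and 59, then 44, 63 and 32, then 36, 57 and 38, and last 24, 20 and 30 in the same order. These are raw reads, and the libraries of depleted cells under Cisplatin were the shallowest. As CPM over the 3 libraries of a group together, inclusion reads were 5.32, 14.1, 4.14 and 13.1 and skipping reads 1.52, 1.25, 1.07 and 0.854 in the same order. Per base, the intron was covered at 10.2, 8.04 and 9.72% of the exon at 3576259 to 3576305 in untreated control and at 17.2, 23.9 and 23.1% in untreated depleted cells. Under Cisplatin it was covered at 9.73, 8.18 and 11.7% in control and at 27.1, 25.5 and 27.6% in depleted cells, which gives HMG20B a larger intron share than NME4 by this measure.

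A gene on the opposite strand, MFSD12 (chromosome 19, 3538259 to 3574288), which encodes a lysosomal membrane transporter, begins inside intron 3 of HMG20B and shares 1514 nt with the gene. Its mRNA level was 34.4, 31.3 and 41.2 CPM in untreated control and 68.4, 78.3 and 63.2 in untreated depleted cells (log2 fold change 0.97 ± 0.12, edgeR adjusted p = 9.93e-05). It was 28.0, 32.5 and 26.2 CPM in Cisplatin-treated control and 53.8, 52.4 and 55.2 in Cisplatin-treated depleted cells. MFSD12 thus rose with the intron reads of HMG20B. Whether the splicing tables were made with strand is not given in the sources used here, and the part of MFSD12 in the inclusion reads was not tested. The intronic read counts given further on appear to have used strand: genic reads fell below exonic reads in 662 of 1048 genes with at least 1200 exonic reads in all that overlap a gene on their own strand, but in 1 of 2754 such genes that overlap a gene on the opposite strand alone.

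Within the retained stretch of HMG20B the tables also list acceptors upstream of the canonical one. The A3SS event (alternative 3′ splice site) whose exon starts at 3574339, 42 nt upstream of the canonical exon start, had 5, 13 and 12 reads of the long form in untreated control and 20, 28 and 19 in untreated depleted cells, against 55, 65 and 59 and 44, 63 and 32 reads of the short form. Its log2 ratio was 1.54 ± 0.48 and did not pass the test (edgeR adjusted p = 0.115, unadjusted p = 0.00123). Reads that lie in the retained intron can count towards the long form. The retained intron events that end at these acceptors had at most 3 skipping reads in a library, and the one tested in untreated cells (3573799 to 3574338) had a log2 ratio of 3.96 ± 1.93 (edgeR adjusted p = 0.140).

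Intron 6 of HMG20B was retained at a low level and rose as well. Its inclusion level was 0.660, 1.22 and 1.06% in untreated control and 3.44, 3.99 and 1.71% in untreated depleted cells (log2 ratio 1.63 ± 0.38, edgeR adjusted p = 0.000673). It was 0.848, 1.42 and 3.56% in Cisplatin-treated control and 4.72, 2.94 and 4.70% in Cisplatin-treated depleted cells, which overlapped. The ratio of this intron changed about as much on the log2 scale as that of intron 3, while its inclusion level moved by 2.07 percentage points. Intron 1 of HMG20B (3572993 to 3573289) had too few reads to be tested, with 0 to 6 skipping reads per library.

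RPAIN retained introns 4 and 5 at higher levels upon depletion in untreated cells, by a few percentage points. For intron 5, which drew the most reads of its retained introns, the inclusion level was 3.76, 2.14 and 3.08% in untreated control (3.00% ± 0.811 SD, n = 3) and 5.49, 8.99 and 6.25% in untreated depleted cells (6.91% ± 1.84). It was 4.07, 3.00 and 6.89% (4.65% on average) in Cisplatin-treated control and 10.2, 9.15 and 9.15% (9.50% ± 0.595) in Cisplatin-treated depleted cells. All depleted libraries lay above the control libraries of the same treatment, and library c of the Cisplatin-treated control cells lay above the other 2 and within the range of untreated depleted cells. The log2 ratio in untreated cells was 1.26 ± 0.26 (edgeR adjusted p = 5.80e-05), and it passed the test without any single library (1.04 to 1.44).

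In intron 5 of RPAIN the inclusion reads were 153, 115 and 167 in untreated control, 247, 311 and 261 in untreated depleted, 203, 159 and 394 in Cisplatin-treated control and 296, 330 and 227 in Cisplatin-treated depleted cells. The skipping reads were 153, 205 and 205, then 166, 123 and 153, then 187, 201 and 208, and last 102, 128 and 88. Control library c under Cisplatin, with 394 inclusion reads, stood above the other 2 of its group. As CPM over the 3 libraries of a group together, inclusion reads were 3.69, 7.36, 6.15 and 9.85 and skipping reads 4.78, 3.97, 4.85 and 3.67 in the same order. Against the exon at 5331391 to 5331531, per base, intron 5 was covered at 3.43, 2.15 and 3.28% in untreated control, 5.93, 8.44 and 6.59% in untreated depleted, 4.14, 2.92 and 6.63% in Cisplatin-treated control and 10.3, 10.1 and 9.94% in Cisplatin-treated depleted cells. This measure replaces the skipping reads with those of an exon but takes the same inclusion reads. That it placed the groups in the same order as the inclusion level is thus no independent observation.

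Intron 4 of RPAIN, which is short, was retained at 8.47, 8.11 and 8.98% in untreated control and at 13.8, 18.1 and 11.5% in untreated depleted cells (log2 ratio 0.85 ± 0.32, edgeR adjusted p = 0.0436). It was retained at 9.10, 5.43 and 13.2% in Cisplatin-treated control and at 24.6, 20.5 and 18.7% in Cisplatin-treated depleted cells. Depleted and control libraries did not overlap, but the call in untreated cells held without library c of the depleted cells only and was lost without any other single library (adjusted p = 0.0853 to 0.265). The 154 inclusion reads of untreated control and 210 of untreated depleted cells behind this event were fewer than those of intron 5.

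The long RPAIN event rested on few skipping reads. Its inclusion level was 63.8, 74.4 and 56.2% in untreated control and 69.1, 63.3 and 64.7% in untreated depleted cells, which overlapped (log2 ratio 0.16 ± 0.70, edgeR adjusted p = 0.907). It was 65.3, 39.2 and 55.6% in Cisplatin-treated control and 82.3, 88.4 and 84.2% in Cisplatin-treated depleted cells, a difference of 31.6 percentage points. The spliced form that also lacks exon 5 had 4, 2 and 6 reads, then 5, 8 and 6, then 5, 11 and 14, and last 3, 2 and 2 reads in the same order of groups. The difference under Cisplatin thus set 30 skipping reads in all 3 Cisplatin-treated control libraries against 7 in the depleted ones.

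**Figure D2:**
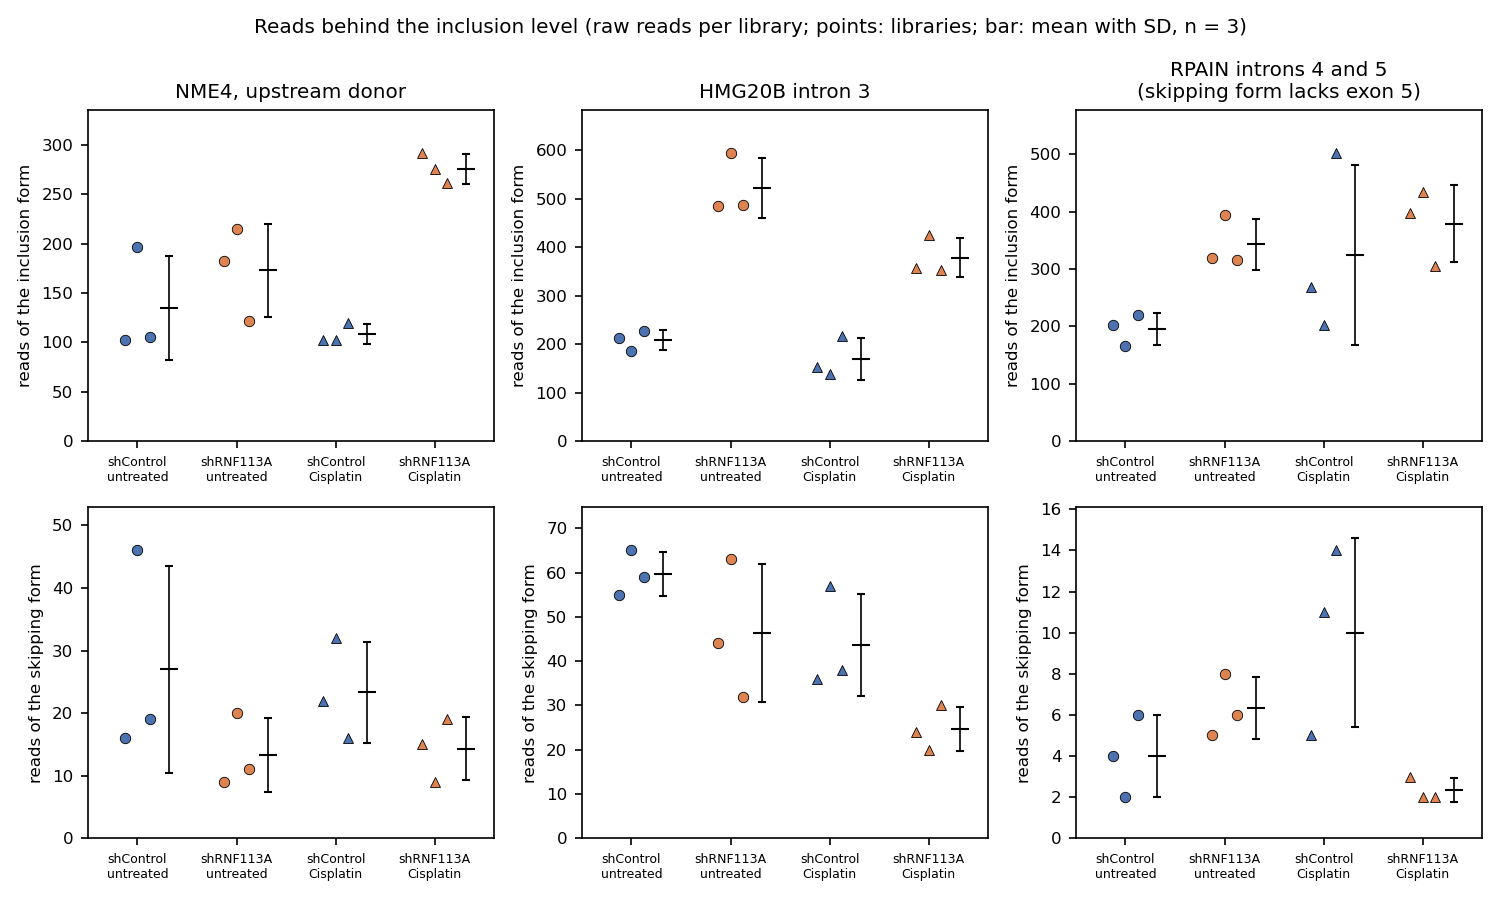
Raw reads per library (vertical axes) with the intron kept (inclusion) and removed (skipping) in the 4 conditions. The events drawn are the upstream NME4 event, HMG20B intron 3 and the long RPAIN event, which rests on few skipping reads. Points are libraries and bars are means with their SD, n = 3. Inclusion reads of HMG20B intron 3 lie at 353 and above in all depleted libraries and at 227 and below in all control libraries.

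Among all retained introns, the members were at the top in the comparison that chose them and lower in untreated cells. Among 2715 events with at least 50 reads in every library, the upstream NME4 event ranked 2 by its difference in inclusion level between depleted and control cells under Cisplatin (33.4 percentage points), HMG20B intron 3 ranked 3 (32.3), the downstream NME4 event ranked 4 (31.7) and the long RPAIN event ranked 5 (31.6). Introns 4 and 5 of RPAIN ranked 240 (12.1 points) and 752 (4.84 points). In untreated cells, among 2548 such events, HMG20B intron 3 ranked 4 (28.2 points), the NME4 events 11 and 15 (24.1 and 22.2 points), RPAIN intron 4 ranked 362, intron 5 ranked 561 and the long event 1288 (0.905 points). The median difference over all events was 1.80 points under Cisplatin, with 84.3% of events higher in depleted cells, and 0.931 points in untreated cells, with 80.8% higher.

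In untreated cells, whose libraries played no part in the choice, 6 of the 8 retained intron events tested had a higher ratio upon depletion at an adjusted p under 0.05 (edgeR) and none had a lower one. Over all 3434 events tested, 17.1% were higher at that threshold and 0.349% lower. Of the 8, 3 (the NME4 pair and HMG20B intron 3) also had inclusion levels at least 20 percentage points apart, against 0.99% of all events. Their median log2 ratio was 1.41, beside 0.56 over all events. These counts hold overlapping events, since the NME4 pair and the RPAIN trio share reads. The HMG20B events that end at 3574338 and 3574380 also share most of their inclusion reads, so these counts are not of independent events. They fell to 3 and 1 without library b of the untreated control cells, and likewise without library a of the untreated depleted cells. By DESeq2 they were 2 and 1, with 154 and 9 of all events against 599 and 34 by edgeR.

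With Cisplatin alone, compared without pairing, the libraries of control cells overlapped the untreated ones at all member introns. No member event had Cisplatin-treated control libraries all above or all below the untreated ones (0 of 9 events, with 7.13% of all events higher and 5.95% lower). In depleted cells the 3 RPAIN events were higher with Cisplatin in every library (3 of 10 events, with 23.8% of all events higher and 6.51% lower), and the NME4 and HMG20B events overlapped or had few reads. In the comparisons of depleted with control cells, 6 of 9 events in untreated cells (30.7% of all events) and 6 of 10 under Cisplatin (40.1% of all events) had depleted libraries above all control libraries, and 0 lay below, where 1.95% and 2.15% of all events did. The member counts of this paragraph took events without a read minimum. The shares of all events took only events with at least 10 reads of both forms together in every library. Counts and shares thus rest on different filters and are not strictly comparable. The count of depletion under Cisplatin also comes from the comparison that chose the genes. The 4 comparisons share groups with one another. At the member events the reads of a group were the same in every comparison that held it. Over all retained introns this was so for 98.6% of the pairs of event and group found in 2 comparisons.

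The other splicing events of the 3 genes did not pass the test in untreated cells. Of 48 such events in that comparison 46 could be tested, and 0 had an adjusted p under 0.05 by edgeR or DESeq2, while 8 had an unadjusted p under 0.05 by edgeR. The background of edgeR calls was low in each category, at 0.0939% of skipped exons, 0.45% of alternative 5′ splice sites, 0.812% of alternative 3′ splice sites and 0.431% of mutually exclusive exons. Over all genes DESeq2 called 0 of 59639 skipped exons, 0 of 3113 alternative 5′ and 0 of 4554 alternative 3′ splice sites. It called 20 of 13681 mutually exclusive exons, so its 0 for the members adds little to that of edgeR. The skipped exon of HMG20B with the most reads (3576890 to 3577105, 216 nt) was included at 98.1, 94.3 and 99.2% in untreated control and at 94.8, 92.5 and 88.5% in untreated depleted cells (log2 ratio -1.52 ± 0.64, edgeR adjusted p = 0.699).

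Exons beside the retained introns were likewise compared. Exon 5 of RPAIN (5329556 to 5329619, 64 nt), which lies between its retained introns, was included between its neighbours at 97.7, 99.0 and 97.0% in untreated control and at 96.9, 93.9 and 96.1% in untreated depleted cells (log2 ratio -1.04 ± 0.71, edgeR adjusted p = 0.699). The NME4 exon that ends at the downstream donor (448208 to 448394, 187 nt) was included at 29.6, 36.3 and 28.8% in untreated control and at 25.6, 14.6 and 27.1% in untreated depleted cells (log2 ratio -0.79 ± 0.35, edgeR adjusted p = 0.699, unadjusted p = 0.0254). With its upstream donor and another exon before it (448208 to 448385, 178 nt), the same exon was included at 64.5, 76.9 and 78.6% and then at 74.5, 66.2 and 79.9% (log2 ratio -0.15 ± 0.59, edgeR adjusted p = 0.942). Some skipped and mutually exclusive exons of NME4 lie beyond 451826, where DECR2, a peroxisomal enzyme of fatty acid breakdown, runs on the same strand, and reads there cannot be given to either gene.

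Upon depletion in untreated cells the mRNA level of HMG20B rose, and the changes of NME4 and RPAIN did not pass the test. CPM give the share of a gene in the reads of a library, so in these bulk samples fewer cells with a transcript and less of it per cell cannot be told apart. NME4 stood at 176, 278 and 192 CPM in untreated control and at 176, 189 and 188 in untreated depleted cells (log2 fold change -0.23 ± 0.16, edgeR adjusted p = 0.310). It stood at 149, 181 and 130 CPM in Cisplatin-treated control and at 139, 132 and 155 in Cisplatin-treated depleted cells. The 278 CPM belong to replicate 2 of the untreated control cells, the library that stands apart, and without it the change upon depletion was -0.000264 on the log2 scale. With Cisplatin, NME4 was lower in control cells (-0.49 ± 0.16, edgeR adjusted p = 0.0189), a call that was lost without replicate 2 of the untreated control cells (-0.27, adjusted p = 0.0690), and without replicate 1 or 3 of the Cisplatin-treated control cells (-0.46 and -0.37, adjusted p = 0.0637 and 0.0963). The change in depleted cells was -0.38 ± 0.16 (edgeR adjusted p = 0.0571), and it passed the test when replicate 1 or 2 of the untreated control or replicate 2 or 3 of the Cisplatin-treated control cells was left out (adjusted p = 0.00689 to 0.0378).

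HMG20B rose upon depletion and fell with Cisplatin. It stood at 35.8, 40.8 and 41.6 CPM in untreated control and at 49.2, 53.9 and 50.5 in untreated depleted cells, with no overlap (log2 fold change 0.38 ± 0.08, edgeR adjusted p = 0.00405, where 12.8% of 15352 genes rose and 14.6% fell at that threshold). It stood at 29.5, 27.4 and 26.9 CPM in Cisplatin-treated control and at 38.3, 37.7 and 39.7 in Cisplatin-treated depleted cells. With Cisplatin it fell by 0.49 ± 0.08 on the log2 scale in control (edgeR adjusted p = 0.000200, with 27% of genes lower) and by 0.41 ± 0.08 in depleted cells (edgeR adjusted p = 0.000705, with 27.8% lower). All these changes stayed under 2-fold.

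RPAIN kept its mRNA level within narrow limits. It stood at 48.2, 45.7 and 47.9 CPM in untreated control, at 44.8, 44.4 and 47.7 in untreated depleted, at 51.9, 49.8 and 50.9 in Cisplatin-treated control and at 46.1, 46.9 and 44.9 in Cisplatin-treated depleted cells. The log2 fold change was -0.05 ± 0.06 upon depletion in untreated cells (edgeR adjusted p = 0.580), 0.11 ± 0.06 with Cisplatin in control (edgeR adjusted p = 0.176) and 0.01 ± 0.06 with Cisplatin in depleted cells (edgeR adjusted p = 0.879). Under Cisplatin the fold changes upon depletion, given without a test, were -0.11 for NME4, 0.46 for HMG20B and -0.14 for RPAIN.

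Intronic reads over the whole gene, as a share of its exonic reads, rose upon depletion for HMG20B and RPAIN. These counts come from another program than the splicing tables but from the same libraries. HMG20B had intronic reads at 10.9, 8.30 and 9.98% of its exonic reads in untreated control and at 18.9, 20.6 and 20.8% in untreated depleted cells (log2 ratio 1.05 ± 0.19, edgeR adjusted p = 0.00325). RPAIN had 27.5, 20.1 and 27.4% in untreated control and 43.9, 57.5 and 45.6% in untreated depleted cells (0.97 ± 0.25, edgeR adjusted p = 0.0111). For NME4 the values were 1.70, 1.86 and 1.62% and then 2.76, 2.69 and 1.74%, and the difference did not pass the test (0.45 ± 0.19, edgeR adjusted p = 0.0768). Over 11488 genes tested the median log2 ratio was 0.47, with 28.2% of genes higher and 0.139% lower, so that the ratio of NME4 lay near the median and those of HMG20B and RPAIN above it. The call of RPAIN was lost without replicate 2 of the untreated control (0.83, adjusted p = 0.0592) or of the untreated depleted cells (0.85, adjusted p = 0.0729).

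In Cisplatin-treated cells the intronic share of all 3 genes was higher in depleted than in control libraries. In untreated cells the libraries of NME4 overlapped. NME4 stood at 2.12, 1.93 and 2.31% in Cisplatin-treated control and at 6.17, 5.75 and 5.75% in Cisplatin-treated depleted cells. HMG20B stood at 9.74, 8.93 and 13.6% and at 22.8, 24.9 and 26.1%, and RPAIN at 28.3, 20.4 and 51.6% and at 78.5, 85.1 and 70.4%. The depleted libraries lay above all control libraries for each gene, in the comparison that chose the genes. No such count was made over all genes, so this separation cannot be called particular to the members. The study reported a higher intronic share upon depletion for most genes, more so under Cisplatin. RPAIN in replicate 3 of the Cisplatin-treated control cells lay in the range of untreated depleted cells. The main retained introns of NME4 and RPAIN lie outside the exons that the authors counted, and 42 of 582 nt of HMG20B intron 3 lie inside them.

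**Figure D3:**
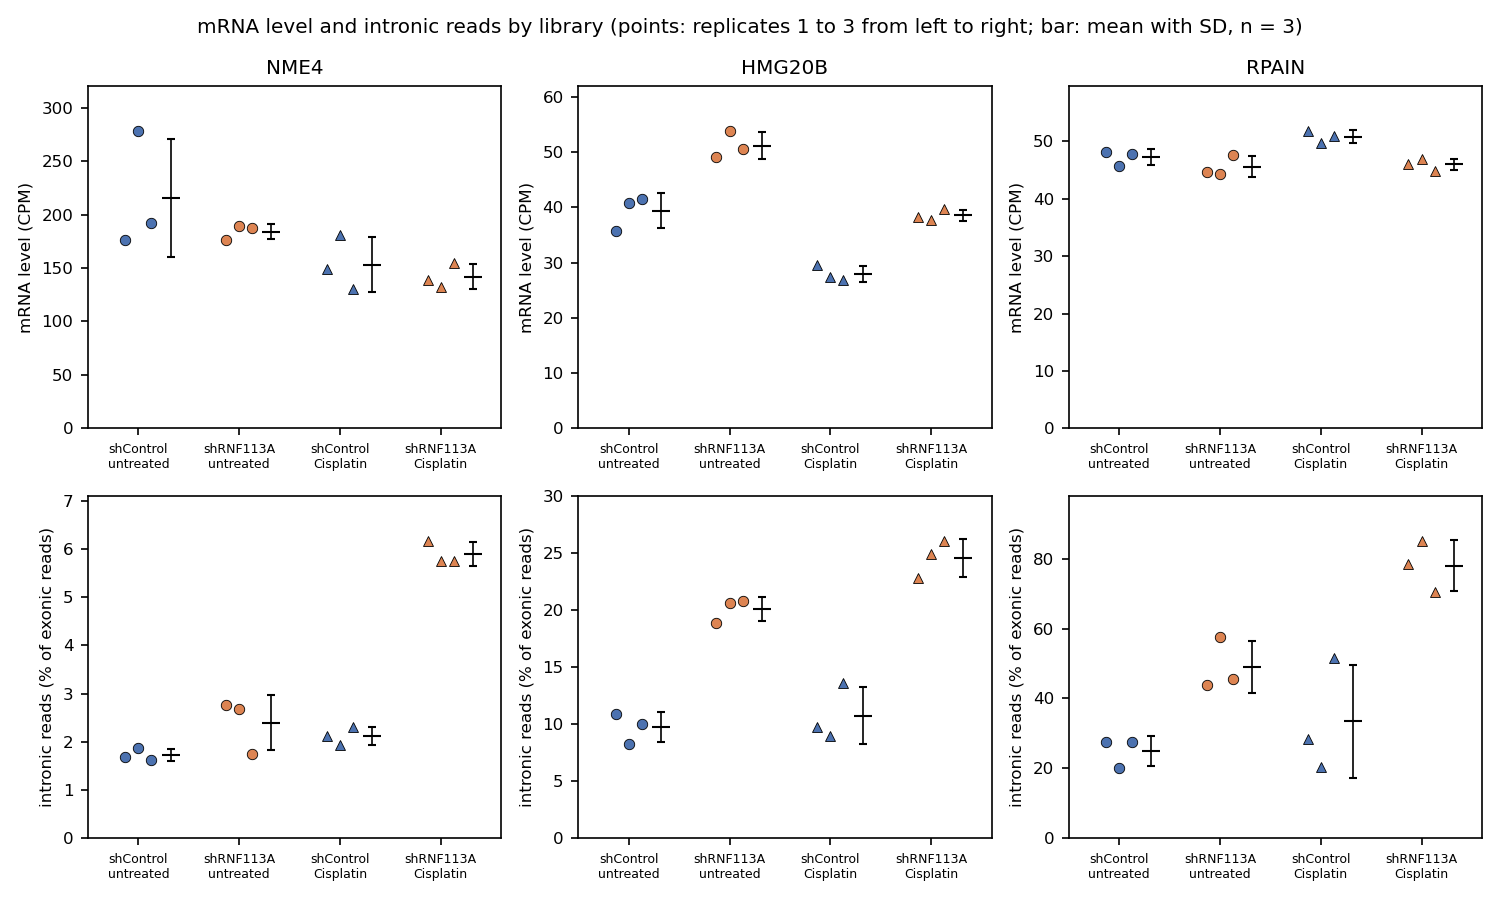
mRNA level in CPM (upper panels) and intronic reads in percent of exonic reads (lower panels) of NME4, HMG20B and RPAIN in the 4 conditions; points are replicates 1 to 3 and bars are means with their SD, n = 3. RPAIN stays between 44.4 and 51.9 CPM while its intronic share runs from 20.1 to 85.1%.

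**Figure D4:**
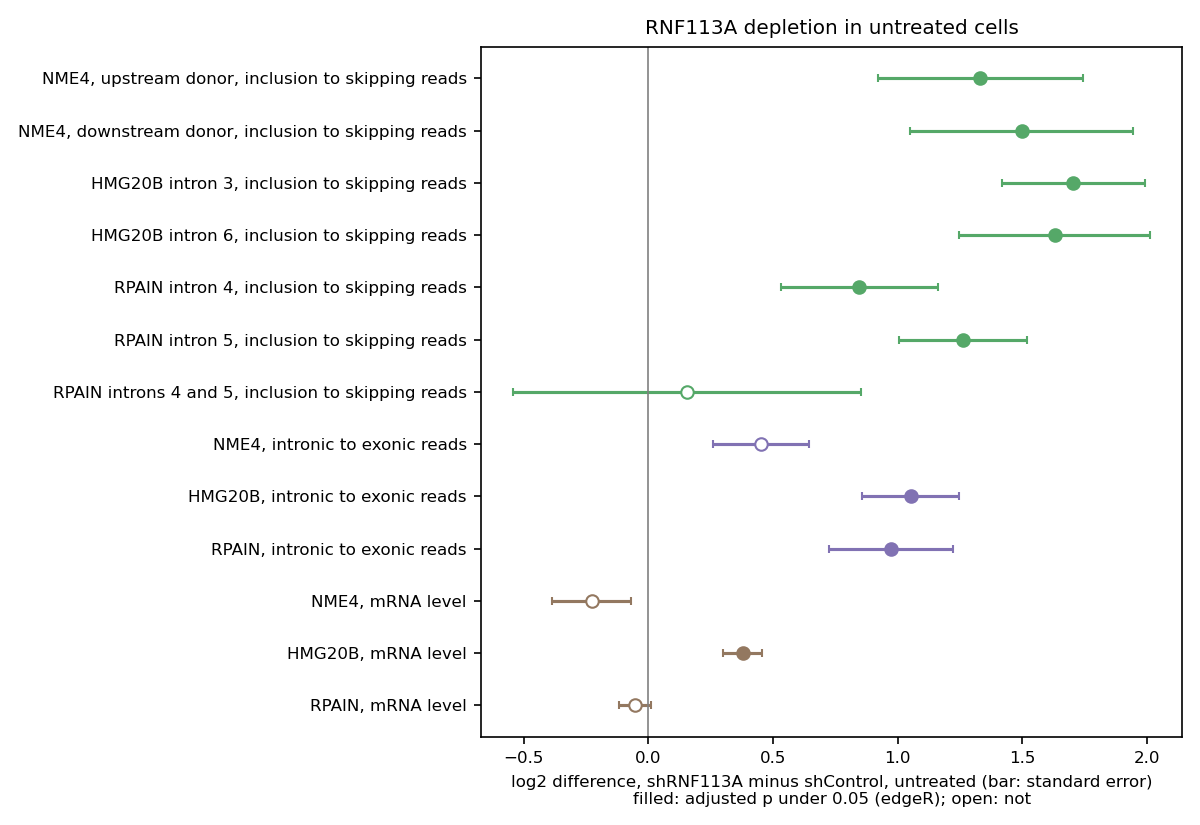
Log2 difference between depleted and control cells without Cisplatin (horizontal axis) for the retained introns, the mRNA level and the intronic share of NME4, HMG20B and RPAIN, with standard errors; filled points have an edgeR adjusted p under 0.05. The ratio of HMG20B intron 3 is at 1.71 and its mRNA level at 0.38, and the mRNA level of RPAIN is at -0.05.

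Genes of the same families and complexes were counted upon depletion in untreated cells, where 12.8% of all genes rose and 14.6% fell. Of 8 other nucleoside diphosphate kinase genes 5 could be tested. NME3 rose (log2 fold change 0.58 ± 0.19, edgeR adjusted p = 0.0419), NME7, whose protein sits at centrosomes and cilia, fell (-0.65 ± 0.11, edgeR adjusted p = 0.00135), and the median of the list was 0.14. Of 11 genes of the LSD1-CoREST complex, all tested, RCOR1, a CoREST scaffold subunit, rose (0.37 ± 0.12, edgeR adjusted p = 0.0320) and 0 fell, with a median of 0.02. Of 7 genes of replication protein A and its import partners, 0 rose and 2 fell: KPNA2, an importin alpha (-0.87 ± 0.08, edgeR adjusted p = 2.08e-05), and RPA3, the smallest RPA subunit (-0.32 ± 0.08, edgeR adjusted p = 0.0138), with a median of -0.09. The median over all genes was 0.00277.

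With Cisplatin the numbers of these genes called also have to be read against those of all genes. In control cells the cytosolic kinases NME1 and NME2 rose and NME7 fell, RCOR2 and RCOR3 rose, HDAC1, PHF21A and RCOR1 fell, XPA, a damage recognition factor of nucleotide excision repair, rose, and KPNA2, KPNB1, RPA1, RPA2 and RPA3 fell, where 28% of all genes rose and 27% fell. NME2 had few reads in these libraries, with 0.318 to 0.790 CPM in untreated and 0.766 to 1.61 CPM in Cisplatin-treated control cells, and its neighbour NME1 stood at 82.0 to 102 and at 148 to 159 CPM. The medians were 0.15 for the kinases, -0.05 for the complex and -0.42 for the RPA list, beside -0.00534 over all genes. In depleted cells 2 kinases rose and 1 fell, 2 genes of the complex rose and 5 fell, and 0 of the RPA list rose and 5 fell, where 32.4% of all genes rose and 27.8% fell. The tables held 6 retained intron events of these genes (3 of NME3 and 1 each of HDAC1, ZMYM2 and ZMYM3) in the untreated comparison, and 0 of 6 had an adjusted p under 0.05 by edgeR, where 17.1% of all events were higher and 0.349% lower.

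Over the 12 libraries in table order, the retained introns whose inclusion level was most like that of a member were found by Pearson's r among 2345 events with at least 50 reads in every library. For the upstream event of NME4 they lay in RPLP1, a ribosomal protein (r = 0.968), AKR1C1, an aldo-keto reductase (0.961), and HNRNPH1, an RNA-binding protein (0.958). For HMG20B intron 3 they lay in CLK4, a kinase of splicing factors (0.979), TSPAN17 (0.978) and VPS28, an endosomal sorting protein (0.971). For RPAIN intron 5 they lay in AP1G2 (0.975), IMPDH2, an enzyme of guanine nucleotide synthesis (0.967), and RPS26 (0.961). Among the members r was 0.948 between NME4 and HMG20B, 0.818 between NME4 and RPAIN and 0.858 between HMG20B and RPAIN. All points share the 4 groups and the libraries, and most retained introns were higher in depleted cells, so these values are a description.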

How the data were processed

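RNA sequencing libraries of A549 cells were re-analysed from the deposited files. Before alignment to hg19 by STAR 2.5.2b, the authors discarded rRNA, tRNA and mitochondrial reads and cut the others to 73 nt. The deposited counts of read pairs per gene and strand come from STAR and are not normalized. Between 14.0 and 22.6% of the read pairs of a library stood in lines that name no gene and were left out. The deposited counts of exonic and genic reads come from HTSeq, which the authors ran in its intersection-strict mode on protein-coding Gencode v19 genes, and intronic reads are genic minus exonic reads. The splicing tables of the authors' rMATS analysis give raw reads of both forms for the 3 libraries of a group in 1 cell, in an order that is not named. Their columns of inclusion levels, p-values and FDR were not used.

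The retained introns, the other events, the mRNA level on the strand of the gene and the intronic share were tested with edgeR 4.0.16 in R 4.3.3 (quasi-likelihood test, Benjamini-Hochberg adjustment over all features, threshold 0.05). The mRNA test used TMM scaling and filterByExpr over all 12 libraries. Splicing tests took events with at least 10 reads of both forms together in every library and a term for each library. Tests of intronic against exonic reads took genes with at least 1 of each in every library. A retained intron was also set against a difference of 20 percentage points in inclusion level. Each test was tested on simulated data. Alternatives were DESeq2 1.42.0, other filters and scalings, unstranded counts, a replicate block and each library left out. P-values weigh a change against the spread between the 3 biological replicates of a group, which edgeR estimates partly from all features together. For retained introns, skipped exons and alternative splice sites it was in effect a spread taken from all events of the category. Small p-values there do not measure the spread of a single event over its libraries. Read counts carry counting error as well as differences between replicates.

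The members, the gene lists and the tests were chosen with earlier results of these data known. The main intron of a gene is its retained intron event with the most reads. Named besides the members are the genes of the 3 lists that passed a test, RNF113A, genes that overlap a member, and the 3 events most alike to each main intron. Which of the other splicing events are named was decided after their values were seen.

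Equally numbered libraries were checked for pairing by the correlation of their deviations from the group means over 9779 genes. It was 0.635, 0.733 and 0.479 for Cisplatin in control cells, which pairs these libraries by the data, and 0.0266, 0.00712 and 0.138 for depletion in untreated cells, 0.411, -0.0725 and 0.295 for Cisplatin in depleted cells and -0.204, 0.0826 and -0.0270 for depletion in Cisplatin-treated cells, which do not. Exon and intron positions come from the splicing tables, and transcripts from the GRCh37 mapping of Gencode.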

Additional observations from a re-analysis of the deposited data

How the results depend on the processing

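Of the mRNA, intronic share, main intron and count results, 63 alternatives other than leaving out a library kept their side of the threshold, 4 gained a call and 4 lost one. By DESeq2, 2 retained intron events of the members passed the adjusted threshold against 6 by edgeR, and 1 against 3 with inclusion levels 20 percentage points apart. Over all events DESeq2 called 154 and 9 against 599 and 34. The ratio of the upstream NME4 intron was 1.32 by DESeq2 (adjusted p = 0.0865). Also by DESeq2, the downstream NME4 event (adjusted p = 0.0863), HMG20B intron 6 (0.0539) and RPAIN intron 4 (0.149) lost their calls. NME4 mRNA with Cisplatin in control cells changed by -0.40 without TMM (adjusted p = 0.0713), and RPAIN by 0.21 (adjusted p = 0.0142). NME4 mRNA with Cisplatin in depleted cells changed by -0.42 by DESeq2 (adjusted p = 0.0223), by -0.39 without a filter (adjusted p = 0.0415) and by -0.37 with the replicate block (adjusted p = 0.0346), a contrast whose numbers do not pair. The replicate block changed no other call. The cause of these changes was not tested.

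With each library left out in turn, 162 results kept their call, 7 gained and 11 lost one. The ranges were -0.63 to -0.27 for NME4 mRNA with Cisplatin in control and -0.44 to -0.36 in depleted cells, 1.07 to 1.53 for the upstream NME4 intron, 0.34 to 0.65 and 0.83 to 1.05 for the intronic share of NME4 and RPAIN, 3 to 6 events past the threshold and 1 to 3 also apart. NME4 gained its intronic call without replicate 2 or 3 of the Cisplatin-treated control cells (adjusted p = 0.0314 and 0.0245) or replicate 3 of the untreated depleted cells (0.0312). RPAIN mRNA with Cisplatin in depleted cells, which passed no test, changed sign under DESeq2 (-0.03). No paired analysis of the splicing events was made, because the 3 libraries in a cell of the splicing tables carry no replicate number. Depth limits the introns with few skipping reads, such as the long event of RPAIN and the upstream acceptors of HMG20B.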
